A study of Mus musculus with 89 samples.

Results

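Lungs of C57BL/6 mice sampled 168 h after challenge with the allergen of the mould Aspergillus fumigatus (Af) were compared with lungs sampled 24 h after challenge. The samples were chosen by their titles, which gave 4 arrays at 168 h and 4 at 24 h, 8 of the 89 arrays of the series. Both groups were male mice of 7 to 8 weeks that had been sensitized to Af by intraperitoneal injection on days 0 and 7 and challenged into the nose on day 13. Both also breathed air, not ozone, for 2 h and were killed 12 h after it. RNA of the perfused left lobe was amplified with the NuGEN system and hybridized to Affymetrix HT Mouse430PM arrays, with a single array per sample. The C57BL/6 air group (6 arrays) breathed air in the same way and had no Af challenge, and its labels do not say whether it had been sensitized. Further groups carry the same treatments in other mice, SP-D-/- mice that lack surfactant protein D (6 arrays at 24 h, 5 at 168 h) and BALB/c mice (5 and 6 arrays). The comparison asks which early responses to the allergen had gone by 168 h, which remained and which appeared late.

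In a sensitized lung, inhaled fungal allergen first acts on the airway lining and on resident macrophages and lymphoid cells, which release chemokines that draw eosinophils, neutrophils and T cells. The airway is lined by ciliated cells, which move mucus, and by club cells, which secrete protective proteins and carry detoxifying enzymes. In later days, antibody-secreting plasma cells and macrophages loaded with lipid and debris are known features of allergic and healing lungs. Since whole lobes were measured, fewer cells of a type and less RNA per cell cannot be told apart.

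The values were log2 signals, so a difference of 1 is a factor of 2, and a gene counts as called where limma's Benjamini-Hochberg adjusted p was under 0.05 over the 15065 genes tested. Epithelial lung markers were high on all 8 arrays, with Sftpc (surfactant protein C) at 12.41 to 12.8 and Scgb1a1 (the club cell secretoglobin) at 12.18 to 13.2. The endothelial marker Pecam1 was not, at 5.81 to 8.28, with 33.39% of genes below it on all 8 arrays. Array quality was uneven at 24 h. Replicate 1 of the 24 h group had a median correlation of 0.639 with the other arrays of its group, against 0.807 to 0.849 for the other 24 h arrays and 0.922 to 0.953 for the 168 h arrays. The hybridization spikes, control transcripts added to the sample before hybridization, averaged 11.54 ± 0.86 (SD, n = 4) at 24 h and 10.62 ± 0.55 (SD, n = 4) at 168 h. They were highest on 24 h replicates 1 and 4 (12.40 and 12.10). The 3′ minus 5′ actin difference, a sign of RNA breakage, was 2.84 ± 0.54 at 24 h, 2.58 ± 0.43 at 168 h and 1.59 ± 0.16 in air. Neither difference between 24 h and 168 h passed the threshold (exact permutation tests, two-sided, p = 0.143 and p = 0.457, with 0.0286 the smallest p that 4 against 4 allows).

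At 168 h the lungs differed from those at 24 h in 28 genes (0.186% of those tested), of which 20 were higher (0.133%) and 8 were lower (0.0531%). The split was 15 higher and 15 lower after loess normalization between arrays, and 20 and 15 with the spikes as a covariate, in a fit that left out 5 arrays of other groups. The 20 that rose included the ciliary genes Hoatz, Rsph1 and Ccdc153, the antibody genes Jchain and Igkv14-111 and the macrophage gene Gpnmb. The 8 that fell included the chemokines Cxcl10 and Ccl17 and the squamous stress gene Sprr1a. The rises ran from 1.04 to 4.30 and the falls from 0.92 to 2.46 on the log2 scale. In 27 of the 28 genes no array of one time overlapped with those of the other, the exception being Sprr1a. Over all tested genes, every 168 h array lay above every 24 h array in 3.52%, and below in 1.53%.

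The 28 calls rest on a spread estimated over all 89 arrays and on single arrays. A limma fit of the 8 arrays alone called 0 genes (lowest adjusted p = 0.15), with 1312 at an unadjusted p under 0.05, all 28 among them. The fit of all arrays had 2673 genes at that unadjusted level (17.7%; 1864 higher and 809 lower). Without 168 h replicate 4 the fit called 1 gene, Igkv14-111. Without 24 h replicate 1 it called 11 genes, without 24 h replicate 6 it called 321, and without 24 h replicate 3 it called 650. Without 24 h replicate 4 or 168 h replicate 2 it called 18 genes each. All 28 genes kept their direction in each of these fits. The median change of all tested genes was 0.11 (0.03 once the spikes entered as a covariate, -0.02 after loess normalization), and small rises are to be read against that shift.

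**Figure D1:**
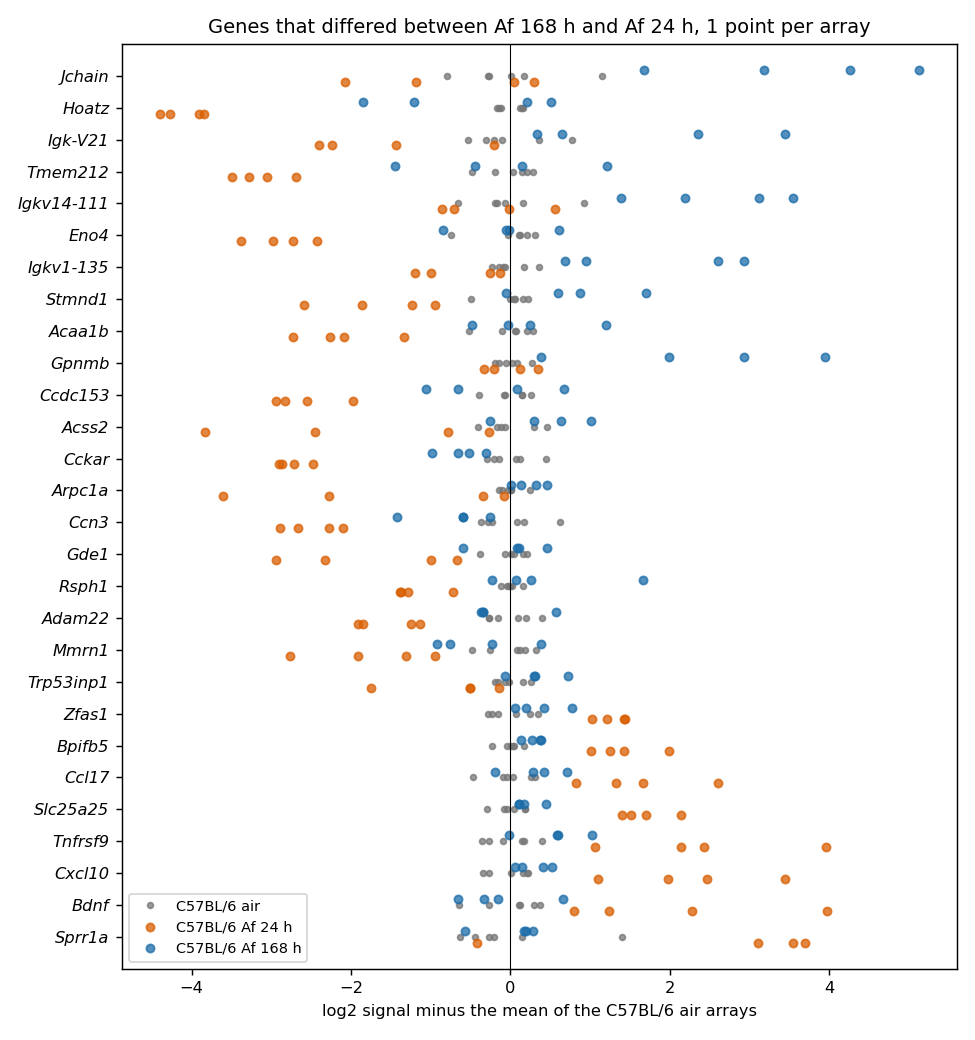
Log2 signal of each of the 28 called genes on the 6 air arrays (grey), the 4 Af 24 h arrays (orange) and the 4 Af 168 h arrays (blue), as the difference from the mean of the air arrays. In the upper part the blue points lie to the right of the orange ones, near air for Hoatz or above it for Jchain. In the lower 8 genes the orange points lie to the right, except 1 orange point of Sprr1a that lies among the blue ones.

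Set against the air group, 23 of the 28 genes were also called at 24 h (16.2% of all genes) and 4 at 168 h (1.35%). These comparisons share the same Af arrays with the comparison of 168 h with 24 h, so the 3 sets of values are given side by side and not as independent evidence. By that reading, 8 genes had risen early and fell back, 15 had fallen early and came back, 4 rose late (Jchain, Igkv14-111, Igkv1-135 and Gpnmb), and none fell late. The 28th gene, Igk-V21, was called at neither time against air.

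Of the 8 early rises that fell back, 2 were chemokine genes. Cxcl10, the interferon-induced ligand of CXCR3 that attracts T cells, read 6.65, 8.999, 7.53 and 8.02 on the 24 h arrays (replicates 1, 3, 4 and 6) and 6.07, 5.62, 5.70 and 5.96 on the 168 h arrays (replicates 2, 3, 4 and 6). All 24 h arrays lay above all 168 h arrays, of which replicates 3 and 4 were within the air range (5.22 to 5.77) and the other two above it. The fall was 1.96 ± 0.40 (SE; limma, adjusted p = 0.0156), a 3.9-fold difference. Ccl17, a chemokine for type 2 helper T cells through the receptor CCR4, read 8.55, 9.49, 7.71 and 8.22 at 24 h and 7.31, 7.61, 7.18 and 6.70 at 168 h. The times did not overlap, and the 168 h arrays reached from the air range (6.42 to 7.20) to just above it. It fell by 1.30 ± 0.30 (adjusted p = 0.036), and lost its call without 5 of the 8 arrays in turn, with the smallest fall, -0.96, without 24 h replicate 3.

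The promoters of these 2 chemokine genes, the only chemokine genes called, are shown because both genes moved the same way. RefSeq's table (build GRCm38.p6) held windows for 21 of the 28 genes, and the 250 bases before the annotated start were searched on both strands for 5 motifs. Cxcl10 lies on the minus strand (chr5:92348890-92349139) and Ccl17 on the plus strand (chr8:94810203-94810452). Capitals mark, in Cxcl10 from left to right, the interferon response core, GAAA and again GAAA with 2 free bases between (2.98% of 32851 promoters hold it), the kappa B form, GGGA and TTCC with 2 free bases between (1.21%), and the AP-1 site TGAGTCA (4.46%), and in Ccl17 the STAT6 form, TTC and GAA with 4 free bases between (5.85%). The kappa B form was found in no other of the 21 genes, whereas the interferon core also occurred in Bdnf, Mmrn1 and Stmnd1. The STAT6 form also occurred in Bdnf, and the AP-1 site in Sprr1a and Tnfrsf9. A match describes letters in the window and was not tested as a site.

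Cxcl10: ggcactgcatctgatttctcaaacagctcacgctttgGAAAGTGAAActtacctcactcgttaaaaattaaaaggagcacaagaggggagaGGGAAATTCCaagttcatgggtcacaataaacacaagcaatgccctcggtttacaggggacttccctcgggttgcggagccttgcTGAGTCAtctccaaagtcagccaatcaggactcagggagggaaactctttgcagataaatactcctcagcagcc

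Ccl17: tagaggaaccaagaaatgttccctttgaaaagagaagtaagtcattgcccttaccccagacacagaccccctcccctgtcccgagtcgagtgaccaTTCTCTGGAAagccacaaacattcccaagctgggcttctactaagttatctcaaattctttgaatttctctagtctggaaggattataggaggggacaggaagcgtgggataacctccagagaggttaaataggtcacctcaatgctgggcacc

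Sprr1a, which encodes a cornified envelope protein made by stressed squamous epithelium, had the largest fall. Its 24 h arrays read 5.46, 9.42, 8.99 and 9.58 and its 168 h arrays 5.31, 6.17, 6.05 and 6.07. On 24 h replicate 1 it stood at the 168 h level, and the other 24 h arrays stood above every 168 h array. The fall was 2.46 ± 0.58 (adjusted p = 0.036), and -3.43 without that replicate, but its call was lost without any of 6 other arrays in turn. The same window of Sprr1a (chr3:92485882-92486131, minus strand) held the AP-1 letters TGAGTCA, shown in capitals, in 2 places.

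Sprr1a: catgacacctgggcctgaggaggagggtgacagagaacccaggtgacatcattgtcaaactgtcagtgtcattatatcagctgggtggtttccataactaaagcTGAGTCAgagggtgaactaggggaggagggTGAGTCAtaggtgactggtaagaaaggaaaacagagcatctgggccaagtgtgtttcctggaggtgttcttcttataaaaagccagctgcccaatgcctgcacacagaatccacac

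The other 5 genes that fell back have varied known roles. Tnfrsf9, the co-stimulatory receptor 4-1BB of activated lymphocytes, read 6.21, 9.11, 7.58 and 7.29 at 24 h against 5.13, 6.17, 5.74 and 5.75 at 168 h, a fall of 1.85 ± 0.43 (adjusted p = 0.0334). Slc25a25, a mitochondrial ATP-Mg/phosphate carrier, read 8.28, 8.90, 8.16 and 8.46 against 6.86, 7.21, 6.93 and 6.87, and fell by 1.48 ± 0.28 (adjusted p = 0.0054). Like Cxcl10, it lost its call only without 168 h replicate 4. Bdnf, a neurotrophin, fell by 2.19 ± 0.52 (adjusted p = 0.0361). Its 24 h readings were 9.63, 6.89, 7.93 and 6.46, highest on the replicates with the highest spikes, and once the spikes entered as a covariate its change was -1.70 (adjusted p = 0.0652). The other probe set of Bdnf changed by -0.06, and the mean of both by -1.13 (limma, adjusted p = 0.0616). Bpifb5, a secreted protein of the BPI-fold family, fell by 1.13 ± 0.26 (adjusted p = 0.0287), and Zfas1, a non-coding host transcript of small nucleolar RNAs, by 0.92 ± 0.21 (adjusted p = 0.0264). At 168 h each of these genes was within 0.55 of its mean in air.

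The lists around these genes showed few further calls. Of 15 tested genes of inflammatory chemokines and innate cytokines, none was called; 6 were lower at an unadjusted p under 0.05 (5.37% of all genes), the median change was -0.45, and 7 had been called higher at 24 h against air (6.4% of all genes) and 0 at 168 h. Il6 read 2.99, 6.39, 3.57 and 6.35 at 24 h and 2.75 to 3.72 at 168 h (-1.64 ± 0.57, adjusted p = 0.17). Cxcl5 differed by -1.75 ± 0.53 (adjusted p = 0.12) and Ccl2 by -0.94 ± 0.40 (adjusted p = 0.23). Ccl2, the main monocyte chemokine, was 1 of the list's 2 genes lower without overlap (1.53% of all genes), at 6.03 to 6.71 against 5.25 to 5.66. Replicates 3 and 6 carried most of the 24 h signal, with list means of 6.52 and 6.10 against 5.14 and 5.18 on replicates 1 and 4.

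Among 15 tested eosinophil-attracting chemokines and type 2 cytokines, Ccl17 was the 1 gene called. At the unadjusted level 5 genes were lower and 1 higher (5.37% and 12.4% of all genes), and the median change was -0.55. Ccl24, eotaxin-2, read 4.85, 8.41, 6.73 and 6.84 at 24 h and 4.67 to 5.02 at 168 h, a difference of -1.84 ± 0.47 that missed the threshold (adjusted p = 0.0653). Il13, the cytokine of goblet cell change, read 4.999 to 6.05 at 24 h and 4.26 to 4.61 at 168 h, without overlap (-0.92 ± 0.30, adjusted p = 0.146). Ccl11, eotaxin-1, differed by -1.34 ± 0.53 (adjusted p = 0.205). In the opposite direction, the receptor chain Il13ra1 read 3.27, 7.67, 4.67 and 6.72 at 24 h and 7.31 to 8.20 at 168 h (2.28 ± 0.69, adjusted p = 0.12). Its 24 h readings were lowest on the 2 replicates with the highest spikes. The change of Il13ra1 with the spikes as a covariate is not given here, so its difference is to be read with that limit.

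Of 17 stress keratin and cornified envelope genes, Sprr1a was the 1 called and 5 were lower at the unadjusted level (5.37% of all genes). The list's median was -0.63, and -0.33 without 24 h replicate 1 and -0.28 with the spikes as a covariate. Of 21 immediate early genes, the fast transcription factors and their targets, none was called and 7 were lower at the unadjusted level, against the same share of all genes. Their median was -0.37, and -0.59 without 24 h replicate 1, -0.62 with the spikes as a covariate and -0.73 after loess normalization. Among these, Fosb did not overlap (4.17 to 5.39 against 3.90 to 3.99, adjusted p = 0.154). Cxcl10 was the only call among 25 tested interferon-stimulated genes, of which 3 were lower (5.37% of all genes) and 1 higher (12.4%) at the unadjusted level. Their median was -0.07, and -0.27 with the spikes as a covariate.

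The early falls that came back formed the larger group, and genes of motile cilia led it. Hoatz, a protein of cilia and flagella, read 3.06, 3.43, 3.48 and 2.94 at 24 h, 7.54, 6.12, 7.84 and 5.47 at 168 h, and 7.17 to 7.49 in air. The times did not overlap. Replicates 2 and 4 at 168 h stood above the air range while replicates 3 and 6 stood below it. The rise was 3.52 ± 0.66 (limma, adjusted p = 0.0054), from 24 h readings that were all under the filter of 4.45 on dim genes, so no fold is given. Tmem212, a membrane protein found in ciliated cells, rose by 2.99 ± 0.56 (adjusted p = 0.0054) from 4.34 to 5.14 at 24 h to 6.38 to 9.04 at 168 h. Both were called with each array left out in turn except 168 h replicate 4. Rsph1, of the radial spokes of the cilium, rose by 1.63 ± 0.35 (adjusted p = 0.0156), but by 1.27 after loess normalization (adjusted p = 0.175).

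Ccdc153, a subunit of the nexin-dynein regulatory complex of cilia, and Eno4, an enolase of the flagellum, rose by 2.33 ± 0.50 and 2.80 ± 0.59 (adjusted p = 0.0156 for both). After loess normalization the change of Ccdc153 was 2.00 and missed the threshold (adjusted p = 0.0817). Ccdc153 read 6.46, 6.07, 7.03 and 6.18 at 24 h and 9.09, 8.35, 9.67 and 7.94 at 168 h, and Eno4 read 3.21, 4.17, 3.87 and 3.62 against 6.58, 6.54, 7.21 and 5.76. As in Hoatz, replicate 4 was the highest and replicate 6 the lowest of the 168 h arrays in both. Their promoters, on the plus strand at chr9:44240427-44240676 and chr19:58943175-58943424, are printed because ciliary genes are known targets of RFX factors. Capitals mark the core GTTGCC of the RFX X-box, which 10.4% of all promoters hold and which was also found in Gde1, Stmnd1 and Tnfrsf9. The windows of the ciliary genes Hoatz and Tmem212 did not hold it, and Rsph1 had no window.

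Ccdc153: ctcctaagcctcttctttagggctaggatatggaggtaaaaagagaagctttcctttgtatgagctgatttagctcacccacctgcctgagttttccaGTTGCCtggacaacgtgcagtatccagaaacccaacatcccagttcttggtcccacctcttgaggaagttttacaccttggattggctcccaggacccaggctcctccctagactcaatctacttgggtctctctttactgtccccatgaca

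Eno4: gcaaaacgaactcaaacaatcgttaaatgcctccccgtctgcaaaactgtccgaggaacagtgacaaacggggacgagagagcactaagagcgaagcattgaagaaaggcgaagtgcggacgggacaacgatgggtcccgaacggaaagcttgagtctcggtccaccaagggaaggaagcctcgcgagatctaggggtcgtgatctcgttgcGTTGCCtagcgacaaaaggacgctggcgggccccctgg

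Of the 34 tested genes of the motile cilia list, 2 were called (Hoatz and Rsph1), 22 were higher and 0 lower at an unadjusted p under 0.05 (12.4% and 5.37% of all genes), 12 did not overlap (3.52%), and the median was 1.16 against 0.11 for all genes. In 20 of the 34 the 24 h level had been called lower than air (9.78% of all genes), and at 168 h none was called against air, with a median difference of 0.04. Just beyond the threshold lay Lrrc23, a radial spoke protein (1.74 ± 0.43, adjusted p = 0.0553), Drc1 of the dynein regulatory complex (1.67 ± 0.43, adjusted p = 0.0653) and Ccdc113, a coiled-coil protein of cilia (2.34 ± 0.61, adjusted p = 0.0689). The list's mean level was 5.65, 5.23, 5.47 and 5.28 at 24 h and 6.66, 6.14, 7.28 and 5.74 at 168 h, so all 168 h arrays were above all 24 h arrays. The air arrays lay at 6.30 to 6.59, and 168 h replicates 3 and 6 stayed below them. Without 168 h replicate 4 the list's median was 0.84.

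Cardiac muscle genes, which the lung holds in the sleeve of the pulmonary vein, varied with the cilia genes between the 168 h arrays. Their mean level over 12 genes was 8.03, 6.03, 9.85 and 5.85 on 168 h replicates 2, 3, 4 and 6, in the same order of replicates as the cilia list. At 24 h it was 7.26, 5.33, 6.05 and 6.71, and in air 7.78 to 8.57. None of the 12 was called, and 4 were higher at the unadjusted level (12.4% of all genes). Their median was 1.33, and 0.52 without 168 h replicate 4. The part of these cells in the ciliary change was not tested.

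Among 19 tested club and airway secretory genes none was called. All 19 changes were positive and 10 were at an unadjusted p under 0.05 (12.4% of all genes were higher at that level). The median was 0.89, and 0.55 without 168 h replicate 4. Pon1, an esterase that breaks down lipid peroxides, read 4.15, 5.41, 4.91 and 4.42 at 24 h and 8.52, 7.20, 7.30 and 5.88 at 168 h, with 8.24 to 8.63 in air (2.51 ± 0.65, adjusted p = 0.0714). Scgb3a2, a secretoglobin, differed by 1.95 ± 0.59 (adjusted p = 0.117), and Cyp2f2, the main activating enzyme of club cells, by 1.70 ± 0.63 (adjusted p = 0.194). In both, 24 h replicate 1 was the highest of its group (11.51 and 10.60), next to the air ranges of 11.81 to 12.18 and 10.97 to 11.49, while replicates 3, 4 and 6 were low (8.19 to 9.79 and 7.76 to 9.41). Against air, 11 of the 19 had been called lower at 24 h (9.78% of all genes) and 0 were called at 168 h, where the median was still -0.70.

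**Figure D2:**
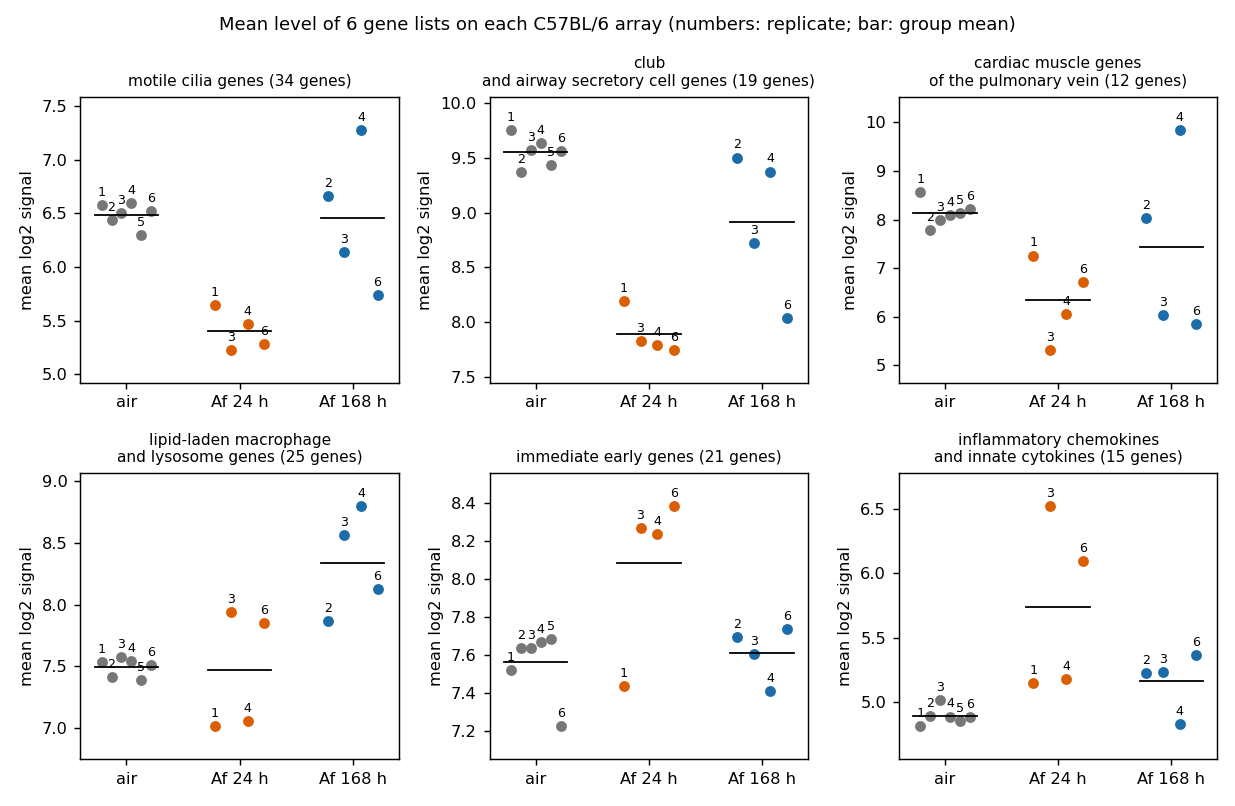
Mean log2 signal of 6 gene lists on each C57BL/6 array, by group (air, Af 24 h, Af 168 h), with the replicate number at each point and a bar at the group mean. The motile cilia panel shows all 168 h arrays above all 24 h arrays, and replicate 4 is highest at 168 h in the cilia, cardiac muscle and lipid-laden macrophage panels.

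The remaining genes that came back were of metabolism, signalling and vessels. Cckar, the cholecystokinin A receptor, read 5.85, 6.03, 5.88 and 6.28 at 24 h and 8.45, 8.23, 8.09 and 7.76 at 168 h (air 8.46 to 9.19). The times did not overlap, and it rose by 2.12 ± 0.50 (adjusted p = 0.0361). Ccn3, a matricellular regulator of growth, rose by 1.77 ± 0.42 (adjusted p = 0.0362) and Acaa1b, a peroxisomal thiolase of fatty acid breakdown, by 2.34 ± 0.49 (adjusted p = 0.0156). Stmnd1, of the stathmin family, rose by 2.43 ± 0.55 (adjusted p = 0.0264) and Adam22, an ADAM family protein without protease activity, by 1.42 ± 0.31 (adjusted p = 0.016). Mmrn1, multimerin 1 of platelets and lymphatic endothelium, rose by 1.36 ± 0.32 (adjusted p = 0.0361) and Trp53inp1, a p53-induced stress protein, by 1.04 ± 0.24 (adjusted p = 0.0317). Adam22 and Mmrn1 each have another probe set on the array whose change was of the opposite sign, as had 1 other probe set of Tnfrsf9. The other probe set of Trp53inp1 hardly changed (0.11). With probe sets averaged, Adam22 changed by 0.50 and Mmrn1 by 0.33 (limma, adjusted p = 0.267 and 0.511). After loess normalization Cckar, Ccn3, Adam22 and Trp53inp1 missed the threshold (adjusted p = 0.0804, 0.0511, 0.107 and 0.107), at changes of 1.78, 1.68, 1.18 and 0.81.

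With the spikes as a covariate Cckar, Stmnd1 and Mmrn1 missed the threshold (adjusted p = 0.0627, 0.0847 and 0.111), at changes of 1.96, 1.98 and 1.09. In 3 further genes the 24 h fall lay mostly on replicates 1 and 4. Acss2, which makes acetyl-CoA from acetate, read 3.69, 6.74, 5.08 and 7.26 at 24 h and 7.27 to 8.54 at 168 h (2.26 ± 0.45, adjusted p = 0.0102). Arpc1a, of the actin-branching Arp2/3 complex, read 3.94, 7.21, 5.28 and 7.48 against 7.55 to 8.01 (1.80 ± 0.39, adjusted p = 0.016), and Gde1, a glycerophosphodiesterase, rose by 1.75 ± 0.41 (adjusted p = 0.0361). Replicates 1 and 4 had the highest spikes, and the 3 genes kept their calls with that covariate, at 2.04, 1.35 and 1.26. Without 24 h replicate 1 all 3 lost them, at changes of 1.59 for Acss2, 1.12 for Arpc1a and 1.55 for Gde1.

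The late rises were led by antibody genes. Jchain, the chain that joins IgA and IgM molecules and marks plasma cells, read 5.39, 6.87, 4.51 and 6.63 at 24 h and 8.26, 9.76, 10.85 and 11.71 at 168 h, with air at 5.79 to 7.72. No 168 h array overlapped with either other group, and the 168 h arrays themselves spanned over 3 units. The rise was 4.30 ± 0.93 (limma, adjusted p = 0.016), a 19.6-fold difference and the largest of all called genes. Igkv14-111, a variable segment of the kappa light chain (family 14), read 4.76, 5.34, 3.92 and 4.07 at 24 h and 6.17, 6.97, 7.90 and 8.32 at 168 h (2.82 ± 0.45, adjusted p = 0.000369). It alone was called with each of the 8 arrays left out. Of the other kappa segments called, Igk-V21 rose by 3.26 ± 0.69 (adjusted p = 0.0156) and Igkv1-135 by 2.44 ± 0.54 (adjusted p = 0.0203), the latter at 1.94 with the spikes as a covariate (adjusted p = 0.053). Igk-V21 was not called against air. Its 24 h mean, 4.15, was below the air range of 5.18 to 6.49, and 168 h replicates 2 and 3 (6.36 and 6.05) were within that range.

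Kappa variable segments can be near-identical copies of each other, so which segment each probe set read is uncertain, and for Igk-V21 and Igkv1-135 1 of 2 other probe sets was dim and changed with the opposite sign. In all 4 genes the 168 h readings were higher on replicates 4 and 6 than on replicates 2 and 3. No other gene of the B and plasma cell list was called: of 18 tested genes Jchain was also the only one at an unadjusted p under 0.05, and the median was 0.13 (-0.16 with the spikes as a covariate). Cd79a, of the B cell receptor, read 7.41 to 8.61 at 24 h and 7.34 to 7.61 at 168 h (adjusted p = 0.337), and the plasma cell factor Prdm1 read 6.04 to 8.39 and 6.47 to 6.86 (adjusted p = 0.46).

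Gpnmb, a glycoprotein of lipid-laden macrophages, read 6.37, 5.81, 6.15 and 5.69 at 24 h and 6.41, 8.96, 9.97 and 8.02 at 168 h, with air at 5.83 to 6.29. Replicate 2 of the 168 h group was hardly above the 24 h arrays, and the other 168 h arrays were well above them. The rise was 2.33 ± 0.53 (adjusted p = 0.0274), and after loess normalization 1.97 (adjusted p = 0.107). Of the 25 tested lipid-laden macrophage and lysosome genes it was the 1 called, 11 were higher (12.4% of all genes) and 0 lower at the unadjusted level. The median was 0.82, and 0.50 with the spikes as a covariate. Mmp12, macrophage elastase, had the list's largest difference, 3.38 ± 0.95, without reaching the threshold (adjusted p = 0.101). It read 3.66, 6.77, 3.97 and 6.27 at 24 h and 6.25, 9.67, 10.17 and 8.09 at 168 h, and against air it was called at 168 h (4.42, adjusted p = 0.00155) and not at 24 h (1.04, adjusted p = 0.403). Ctsk, cathepsin K, followed the same course against air, at 1.98 at 168 h (adjusted p = 0.00388) and 0.89 at 24 h (adjusted p = 0.127), while Lpl, lipoprotein lipase, was below air at 24 h (-1.21, adjusted p = 0.0269) and at 0.10 at 168 h. With the spikes and the actin difference as covariates, Mmp12 and Ctsk stayed called at 168 h and Lpl was no longer called at 24 h (-0.79, adjusted p = 0.187).

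**Figure D3:**
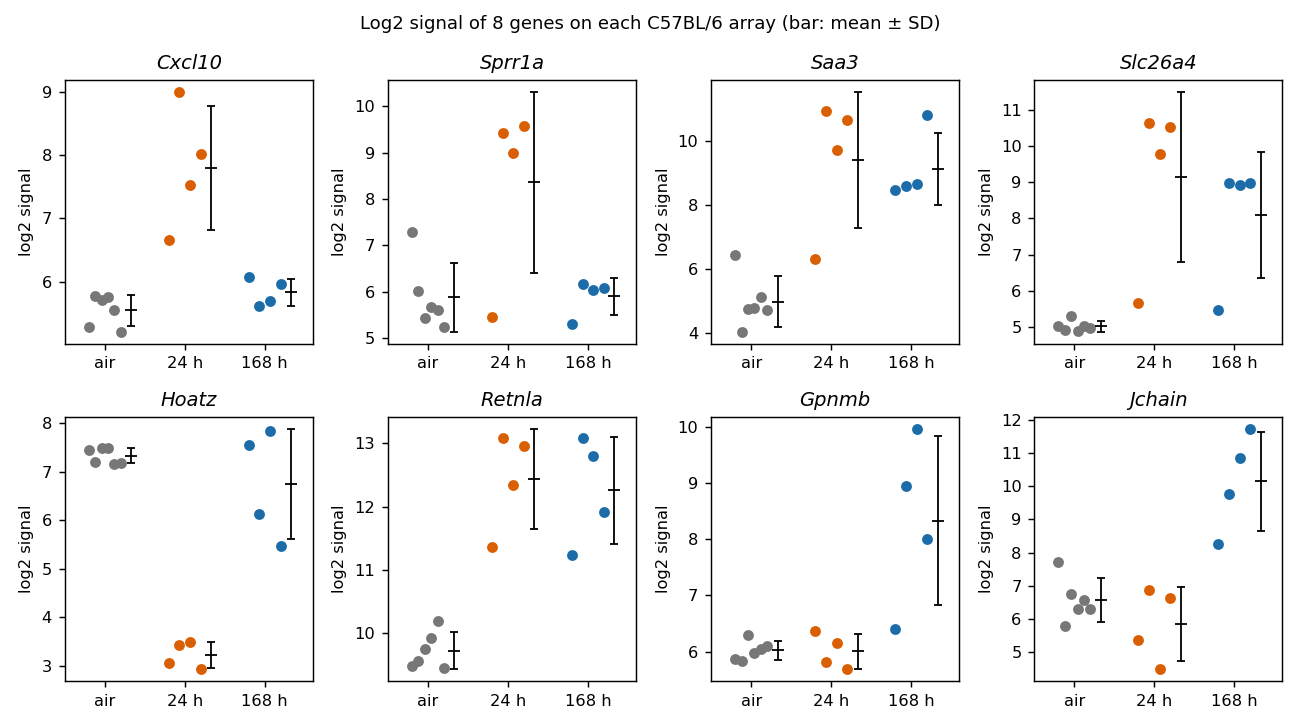
Log2 signal of 8 genes on each C57BL/6 array in air (grey), at Af 24 h (orange) and at Af 168 h (blue), with the mean and SD of each group. Cxcl10 and Sprr1a were back near air at 168 h and Hoatz had returned towards it, Saa3 and Retnla were above the air mean on every Af array and Slc26a4 near air on 1 array of each time, and Gpnmb and Jchain were high only at 168 h among these 3 groups.

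Against air, 2437 genes were called at 24 h (16.2%; 964 higher, 6.4%, and 1473 lower, 9.78%) and 204 at 168 h (1.35%; 164 higher, 1.09%, and 40 lower, 0.266%). The actin difference moved with these comparisons: it was 1.45 to 1.87 on the air arrays and 2.08 to 3.32 on the 8 Af arrays, without overlap. With it and the spikes as covariates, 501 genes were called at 24 h, 415 of them among the 2437, and 32 at 168 h, 28 of them among the 204. Of the 28 genes called between the times, all 8 early rises stayed called against air at 24 h, as did 13 of the early falls (not Arpc1a or Stmnd1), and at 168 h Igkv14-111 and Gpnmb stayed called. Jchain was then 3.44 above air at 168 h (adjusted p = 0.062) and Igkv1-135 was 1.84 above it (adjusted p = 0.0639).

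Without these covariates, of the early calls 110 were also called higher and 37 also lower at 168 h. A further 854 were called higher and 1436 lower at 24 h alone; a missed call at 168 h does not show that the gene was back at air. Their median change from 24 h to 168 h was -0.57 and 0.94, and their median difference from air at 168 h was 0.39 and -0.53. The genes chosen by a high or low 24 h level must on average move the other way, since the same 24 h arrays enter both values. At 168 h alone, 54 genes were called higher and 3 lower (Flt4, Igf2 and Smad7).

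The genes that stayed high named here were chosen after their values were seen. Saa3, an acute-phase protein of inflamed epithelium and macrophages, read 6.31, 10.93, 9.71 and 10.66 at 24 h and 8.45, 8.60, 8.65 and 10.79 at 168 h, against 4.05 to 6.43 in air. It was called at both times (4.42 and 4.14 above air, adjusted p = 7.32e-08 and 1.01e-06), and 168 h differed from 24 h by -0.28 ± 0.61 (adjusted p = 0.808). Retnla, the resistin-like protein of type 2 inflammation, was 2.71 and 2.53 above air (adjusted p = 9.59e-09 and 1.16e-07) and differed by -0.18 ± 0.34 between the times. Slc26a4, the anion exchanger pendrin, was 4.13 and 3.06 above air (adjusted p = 3.78e-06 and 0.00155), but 24 h replicate 1 (5.67) and 168 h replicate 2 (5.47) were near the air range of 4.88 to 5.31. Arg1, arginase of type 2 macrophages, was 2.47 and 2.24 above air (adjusted p = 0.00328 and 0.0323), but read 4.35 on 24 h replicate 1, no higher than the air arrays (4.35 to 4.83). With both covariates Saa3, Retnla and Slc26a4 stayed called at both times, and Arg1 missed the threshold at 168 h (2.32, adjusted p = 0.0501). Of the 19 genes of the alternatively activated macrophage list, 6 were called higher than air at 24 h (6.4% of all genes) and 4 at 168 h (1.09%), and none was called between the times. Their median between the times was 0.30, but -0.36 with the spikes as a covariate and -0.08 without 24 h replicate 1.

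Lists of other lung and immune cells held no call between the times. This was so for the alveolar type 1 (13 genes tested, median 0.22) and type 2 (15, median 0.10) lists and for endothelial (24, median -0.06) and goblet cell genes (18, median 0.17). It was so too for markers of neutrophils (17, median 0.33), eosinophils (7, median -0.12), mast cells and basophils (6, median -0.12), T cells (21, median -0.06), NK cells (14, median 0.02) and dendritic cells (23, median 0.24). With the spikes as a covariate the alveolar type 1 and type 2, eosinophil, NK cell and dendritic cell medians had the opposite sign. Without 168 h replicate 4 the goblet cell median was -0.39 and the endothelial median 0.29, also of opposite sign. The goblet cell list's mean level was 7.66 on that replicate, against 5.67 to 5.75 on the other 168 h arrays. Sftpd, which encodes surfactant protein D, differed by 0.03 (adjusted p = 0.985). The other 11 lists without a call (stress, metabolic, matrix, complement, cell cycle, muscle, liver and red cell genes) had medians of -0.56 to 0.46. Of 32 lists, 6 held a called gene, and 7 of the 28 called genes were in a list.

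The same comparison in the other strains gave a partly different set. In SP-D-/- mice 205 genes were called between 168 h and 24 h (1.36%; 1.19% higher and 0.173% lower) and in BALB/c 657 (4.36%; 2.75% higher and 1.61% lower), the latter 113 (0.75%) without the 5 arrays of the series whose Sftpd level or strain-marker index went against their labels. None of those 5 is a C57BL/6 Af 24 h or Af 168 h array. Of the 28 genes, 25 had the same sign in SP-D-/- and 12 were called there in the same direction. In BALB/c 27 had the same sign and 19 were called, 12 without the doubted arrays. With the doubted arrays kept, 8 genes were called in both, and the count without them is not given here. Sprr1a fell in all 3 strains, by 2.46, 2.88 and 2.58 in C57BL/6, SP-D-/- and BALB/c, and Hoatz, Tmem212, Ccdc153, Eno4, Cckar, Stmnd1 and Cxcl10 were the others. Tmem212 rose by 2.99, 3.11 and 2.84.

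Jchain rose by 4.58 ± 0.79 in BALB/c (adjusted p = 0.000123) and differed by 0.33 ± 0.79 between the times in SP-D-/- (adjusted p = 0.995). Its 24 h mean was already 8.36 in SP-D-/-, against 5.85 in C57BL/6 and 6.22 in BALB/c. At 168 h the means were 8.69, 10.14 and 10.80 in the same order. The difference in the change of Jchain between C57BL/6 and SP-D-/- was 3.97 ± 1.22 and missed the threshold (adjusted p = 0.458). For Igkv14-111 the change in SP-D-/- was -0.27 ± 0.39 and the difference, 3.09 ± 0.60, passed (adjusted p = 0.0271), the 1 gene of 15065 to do so (0.00664%; 1368 genes, 9.08%, at an unadjusted p under 0.05). That call held in 10 of 19 fits with an array left out, and was lost without C57BL/6 168 h replicate 4 or 6, 24 h replicate 4, or any of 6 SP-D-/- arrays. With the spikes as a covariate the difference was 2.69 (adjusted p = 0.0715), and in a fit of these 4 groups alone its adjusted p was 0.677. Between C57BL/6 and BALB/c 0 genes differed in their change by limma's adjusted p, with 1240 (8.23%) at an unadjusted p under 0.05.

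**Figure D4:**
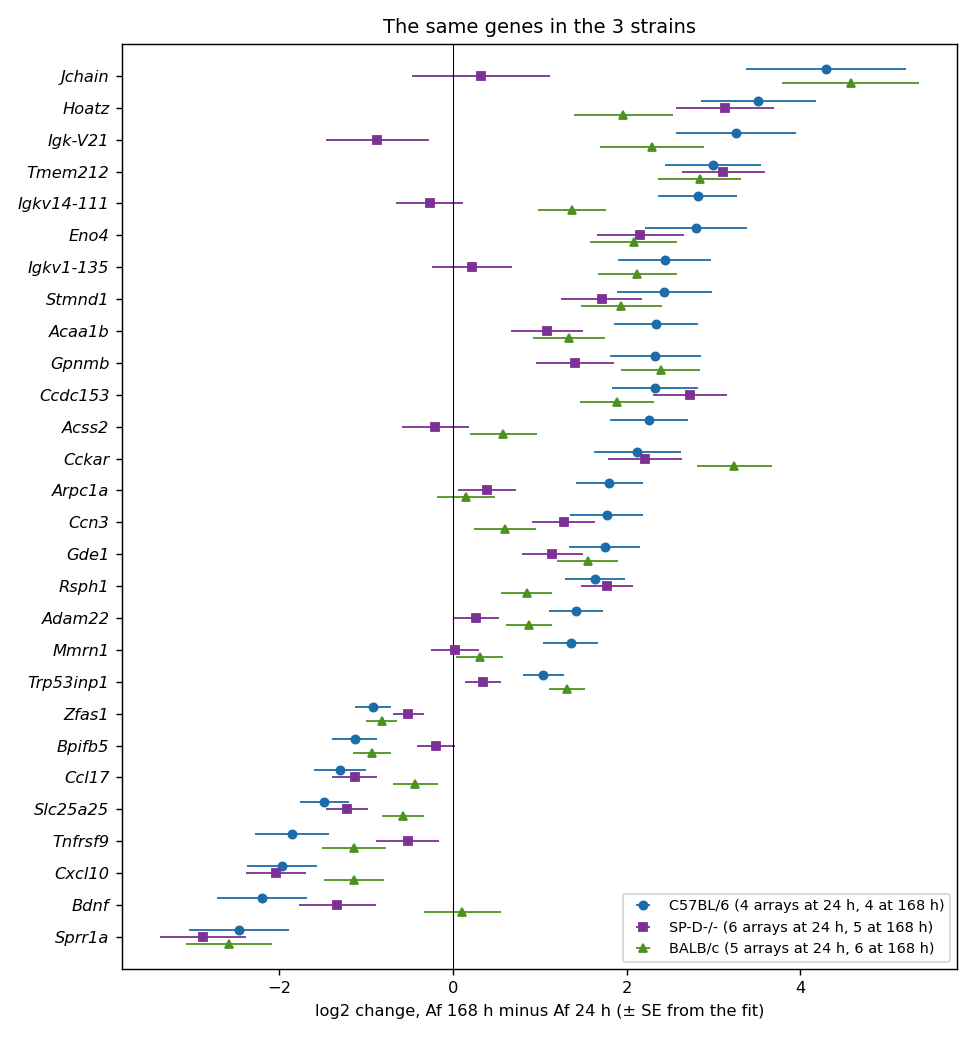
Change from Af 24 h to Af 168 h of the 28 genes called in C57BL/6, in C57BL/6 (circles), SP-D-/- (squares) and BALB/c (triangles), as log2 differences with the SE of the fit over all arrays. The ciliary genes Hoatz, Tmem212 and Ccdc153 lie to the right in all 3 strains, whereas the SP-D-/- points of Jchain, Igkv14-111, Igkv1-135 and Igk-V21 lie near or left of 0.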

How the data were processed

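The authors deposited normalized log2 signals of 45141 probe sets on 89 arrays, per the file headers, with every array at the same median; their software is not given in the sources used here. Nothing beyond replicate numbers in the labels says that arrays are separate animals, so p-values measure a spread between samples, and the number of arrays limits the precision. For limma's p-values and SEs that spread was pooled within the groups of all 89 arrays. The spread of a single group could differ from it, as for Arpc1a (SD 1.67 at 24 h and 0.20 at 168 h) and Gpnmb (0.31 and 1.51). Probe sets were named through the platform annotation (28898 with 1 symbol, 551 with several, 15588 with none, 104 controls). The probe set with the highest mean stood for each of 17097 genes, and 15065 genes above log2 4.45 (the 40th percentile) on at least 4 arrays were tested.

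A limma model (version 3.58.1, R 4.3.3) with a mean for each of the 18 groups used all 89 arrays, with two-sided moderated tests, Benjamini-Hochberg adjusted over all genes. Python 3.11.15 and scipy 1.17.1 did the rest. The fit was tried on simulated data with the same spread in every group. There it recovered 20% of log2 changes of 1 and 78% of changes of 2 between 168 h and 24 h. It made 5 false calls in that comparison and 4 in the difference from SP-D-/-. Early and late calls came from the Af groups against air. The genes named are the 12 largest rises and falls among called genes, the 5 largest in each time pattern, up to 4 called members of each of 32 gene lists, up to 3 called in each strain difference, and Sftpd, passing over gene models and clone names; the remaining called genes, list members that were not called and lasting genes were added after their values were seen. The comparison and the lists were chosen with earlier results of these data known. Alternatives were loess normalization, mean probe sets, no filter, other sets of arrays, covariates for the spike level (9 control probe sets) and the actin difference, a replicate block, and leaving out each array. The 5 doubted arrays (2 of BALB/c at Af 24 h, 3 of ozone groups) stayed in the fit, except that the covariate fits left them out. Promoter sequences and coordinates are from RefSeq, GRCm38.p6.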

Additional observations from a re-analysis of the deposited data

Results flagged for a closer look

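Among 93 sets of 4 to 6 arrays, 7 held an array that stood apart from the rest of its group by Dixon's criterion, which chance gives in about 1 set in 20. Sprr1a had 2 of them. At Af 24 h replicate 1 read 5.46, against 8.99 to 9.58 on the other 3 arrays, and at Af 168 h replicate 2 read 5.31, against 6.05 to 6.17. Rsph1 read 6.41 on Af 24 h replicate 4, the highest of its group, and Adam22 read 7.44 on Af 168 h replicate 4. In air, replicate 2 was low for both Eno4 (5.86) and Stmnd1 (5.76). The actin difference of Af 168 h replicate 6 was 3.22, above the 2.27 to 2.41 of the other 168 h arrays.

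The change of Igkv14-111 from 24 h to 168 h differed between C57BL/6 and SP-D-/- mice by 3.09 (interaction term, limma), with the limits given above.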

How the results depend on the processing

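The main counts were 20 genes higher, 8 lower, 15 early falls that came back, 8 early rises that fell back, 4 late rises, 0 late falls, and 1 and 0 strain differences against SP-D-/- and BALB/c. A fit of the 8 arrays alone gave 0 higher and 0 lower. A fit of these and the air arrays gave 37 calls between the times, 16 of them among the 28, with 28 early falls back and 3 early rises back. A fit of the C57BL/6 and SP-D-/- groups alone gave 0 differences between them. Without the 5 doubted arrays there were 68, 19, 56 and 19 in the first 4 counts. Loess normalization gave 15 lower and 15 early rises back. The spike covariate gave 15 lower, 15 early rises back and 0 differences from SP-D-/-, and both covariates gave 16, 15, 0 and 2 late rises. Averaging probe sets or dropping the filter moved no count by over 1.5 times. Leaving out each array gave 1 to 478 higher, 0 to 172 lower, 0 to 393 early falls back, 0 to 170 early rises back, 1 to 13 late rises, 0 late falls, and 0 to 13 and 0 strain differences. The cause of these shifts was not tested.

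Of the 28 genes, 21 kept their call under loess, 23 under the spike covariate and 28 without the filter or the doubted arrays; none changed sign. The replicate block gave 16 higher and 6 lower calls, 22 of the 28 among them. Same-numbered arrays deviated with correlations of 0.51, 0.21 and -0.04, and differently numbered arrays with -0.44 to 0.42. So few same-numbered pairs cannot show whether the numbers pair samples or mark a shared batch. The main fit used no pairing. The number of arrays, 4 a group, limits the precision, and 7 of the 28 genes had a 24 h mean under the filter on dim genes.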

Other observations

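Among the 37 genes called lower than air at both times were Icam2, an adhesion molecule, Tmem100, of BMP signalling, and S1pr1, a sphingosine-1-phosphate receptor, named after their values were seen and members of no list used here. Icam2 differed from air by -1.64 at 24 h and -1.98 at 168 h (limma, adjusted p = 0.0043 and 0.00255), Tmem100 by -2.70 and -2.46 (adjusted p = 0.00506 and 0.0442) and S1pr1 by -1.02 and -1.75 (adjusted p = 0.0408 and 0.00267). With the spikes and the actin difference as covariates the 1 of these calls that held was Icam2 at 168 h (-1.70, adjusted p = 0.018). In all 3 genes 168 h replicate 2 was the highest of its group (Tmem100 at 9.94, with air at 9.82 to 10.57) and replicate 4 the lowest (Tmem100 at 5.46). Of the 24 genes of the endothelial list, 7 were called lower than air at 24 h (9.78% of all genes) and 1 at 168 h (0.266%).

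Of 43 cell cycle genes, 7 were called higher than air at 24 h (6.4% of all genes) and 3 at 168 h (1.09%), with medians of 0.53 and 0.59, and none was called between the times. Birc5, survivin of the mitotic spindle, was 1.41 and 1.76 above air (adjusted p = 0.0299 and 0.0323), and with both covariates 1.46 and 1.47 above it (adjusted p = 0.0252 and 0.0786). Aspm, another spindle protein, read 4.82 to 5.14 at 24 h and 5.22 to 6.50 at 168 h without overlap (0.97 ± 0.58, adjusted p = 0.345).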
